A study of Mus musculus with 3 samples.

Results

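In mouse embryonic stem cells (ESCs), 1177 promoter regions enriched for wild-type H2A.Z were also enriched for an acidic patch mutant of H2A.Z and for trimethylated lysine 27 of histone H3 (H3K27me3). They were chosen from 78359 regions called in the wild-type library, of which 18957 had their midpoint no more than 2000 bp from the start of a protein-coding transcript. A promoter region was a member where it shared at least 1 bp with a region of the mutant library and at least 1 bp with a region of the H3K27me3 library. The members were 6.21% of the promoter regions, and they lay at 1145 genes. The overlaps with the mutant and H3K27me3 lists chose the members, so their presence there is a description and no result is read from it.

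ChIP-Seq compared where the wild-type protein (H2A.Z WT) and H2A.Z AP3, a mutant in which 3 divergent acidic patch residues (G92N, D97N and S98K) were exchanged for those of H2A, are found in the genome. Both proteins carried a C-terminal yellow fluorescent protein tag and were recovered with an antibody against GFP from transgenic KH2 ESC lines. Their expression was driven by a CMV promoter under an rtTA system with doxycycline, tag-positive cells were sorted, and endogenous H2A.Z was depleted with hairpins against its 3′ untranslated region in both lines. The H3K27me3 library was made with an antibody against that mark from cells whose genotype is labelled WT. The strain label of every sample is V6.5, a line from a cross of 129SvJae and C57BL/6 mice, although the transgenic lines are described as KH2. Each group was 1 library, so no difference between libraries has a replicate check, and the 95% Wilson intervals given with shares cover counting error only. The lists hold region starts and ends and no read numbers, so the sequencing depth is unknown and a shorter list or region may come from a shallower library.

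H2A.Z, a histone variant, replaces H2A and is placed by remodelling complexes in the nucleosomes flanking active and poised promoters. Its acidic patch is a surface of negatively charged residues to which other chromatin proteins bind. H3K27me3 is written by Polycomb repressive complex PRC2 over silent developmental genes, and in ESCs many of these promoters are called bivalent because they also carry the activating mark H3K4me3. The lists measure occupancy and not expression. As a check of the H3K27me3 list, a region lay within 2000 bp of a start site of 39 of 39 Hox genes, and of 2 of 77 cytosolic ribosomal protein genes, Rpl13a and Rpl7. Of 20 core pluripotency genes 4 had such a region, namely Dppa3, Esrrb, Prdm14 and Tbx3.

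To show the DNA on which the 3 lists met, sequence is given for 1 member from each of 8 families of transcription factors. Each line gives 30 bases common to the regions of all 3 libraries, on the forward strand of mm9 and written 5′ to 3′, with CpG dinucleotides in capitals. The stretch with the most CpG was taken, so its density is a result of the choice.
Hoxa7 (chr6:52167262-52167291): gCGaaggCGcCGgCGccCGgccCGtagcCG
Emx1 (chr6:85136607-85136636): ggccCGCGgtCGcaggtCGcaggtcacaCG
Foxd4 (chr19:24974357-24974386): tCGatggtgaaCGaagCGcaccCGCGtcCG
Gata2 (chr6:88150211-88150240): agccCGtctcacCGgaggccagatgtgcCG
Pax9 (chr12:57792716-57792745): tgCGCGggttCGtccacagCGtCGtCGtCG
Tbx4 (chr11:85700076-85700105): ctccagccCGtCGcCGgtgagcagggtgCG
Sox18 (chr2:181405753-181405782): caaacCGtCGtgCGccttgggCGCGCGgCG
Olig3 (chr10:19076686-19076715): gttgCGgctgaagatcaaCGgaCGCGaaCG
For contrast, the next stretches come from long promoter regions of the same kinds of gene (Wnt7b encodes a secreted signal). These carried H2A.Z WT and H3K27me3 but were called in no H2A.Z AP3 region. Each stretch was chosen from the bases under H3K27me3, which numbered 1150 at Hoxa10, 1575 at Wnt7b and only 50 at Foxd3. The CpG numbers of these lines are therefore not comparable.
Hoxa10 (chr6:52184150-52184179): gtgCGggCGgCGggtCGaaacCGCGcccCG
Foxd3 (chr4:99323801-99323830): caacCGttttcCGtactacCGggagaagtt
Wnt7b (chr15:85407224-85407253): atCGggCGaagccacCGctgtgCGgaCGCG
Hoxa10 also had a member, so a gene could hold a promoter region that met the rule and another that did not.

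Hoxa7, which helps to set positional identity along the body axis, had the most mutant-covered bases of the Hox list, summed over its members. Its region chr6:52166901-52168025 was 1125 bp long, was covered by H2A.Z AP3 over 975 bp and lay wholly within H3K27me3. A further region of 800 bp at the same gene was covered by H2A.Z AP3 over 400 bp, and the third, of 1400 bp, over 550 bp. The 3 regions differed in the share that the mutant reached, although H3K27me3 covered most of each.

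Gata2, a zinc finger factor of blood progenitors, had one of the longest members and little mutant. The region chr6:88148026-88151325 was 3300 bp long, H3K27me3 covered 3000 bp of it and H2A.Z AP3 covered 225 bp. Pou4f2, a POU homeodomain factor of retinal ganglion cells, had a member of 3525 bp with 2675 bp of H3K27me3 and 925 bp of H2A.Z AP3, split between 2 mutant regions. Wnt2, a secreted signal, showed the opposite extreme, since all 1400 bp of chr6:17981001-17982400 were covered by both lists.

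**Figure D1:**
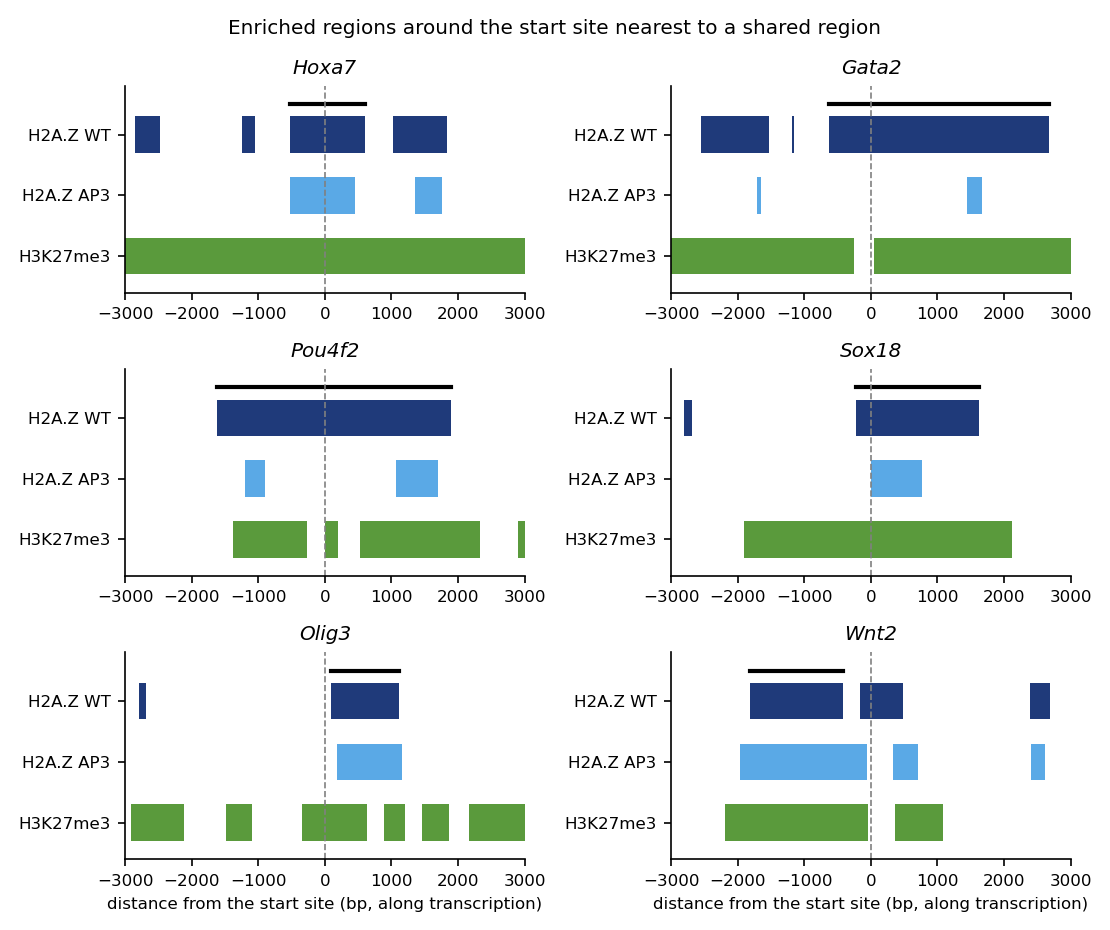
Enriched regions of the 3 libraries around the start site nearest to a member at Hoxa7, Gata2, Pou4f2, Sox18, Olig3 and Wnt2, by distance from that start in bp along transcription. The black line marks the member. The H2A.Z AP3 blocks cover 975 of 1125 bp at Hoxa7 and 225 of 3300 bp at Gata2.

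In the typical member, the called mutant stretch was shorter than the wild-type region. The H2A.Z WT regions had a median length of 950 bp (925 to 1025), with quartiles of 600 and 1400 bp and a range of 25 to 4150 bp. H2A.Z AP3 covered a median of 225 bp of each (quartiles 125 and 425 bp), which was 27.3% of the region (25 to 29.4). The largest coverage of a member was 3200 bp, summed over 2 mutant regions. The whole lists differed in the same direction. The 14599 H2A.Z AP3 regions had a median length of 175 bp and covered 3.50 Mb. For the 78359 H2A.Z WT regions these values were 250 bp and 28.3 Mb. Short mutant regions were thus not particular to the members.

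In 1006 members (85.5%, 83.3 to 87.4) the H2A.Z AP3 regions lay wholly within the H2A.Z WT region, and in 57 (4.84%) they covered 90% or more of it. Of the 2886 promoter regions with H2A.Z AP3 and no H3K27me3, 67.8% (66.1 to 69.5) held the mutant wholly inside and 10.5% were covered to 90% or more. Members were split more often between separate mutant regions, with 2 or more in 158 members (13.4%) against 5.68% of the regions without H3K27me3. The median length of the wild-type region was 550 bp in the class without H3K27me3, and the part of length in these counts was not tested. The 2793 regions with H3K27me3 and no mutant also had a median length of 550 bp.

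H3K27me3 covered more of the typical member than the mutant did. Its median was 475 bp (450 to 500), or 60.0% of the region (57.1 to 63.2), and 198 members (16.8%) were covered from end to end. Members at Sox18, a regulator of endothelial cells (1850 bp), Tlx2, a homeobox gene of the enteric nervous system (2550 bp), and Hoxa7 were among these. In 306 members (26.0%) the mark was split into 2 or more regions, as at Grin2a, a glutamate receptor subunit gene with 4 such regions over 3750 bp.

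The stricter lists, called at 1e-12 in place of 1e-9, kept most of these calls. Of the members 99.3% held an H2A.Z WT region there, 85.5% (83.3 to 87.4) an H3K27me3 region and 68.4% (65.7 to 71.0) an H2A.Z AP3 region. All 3 were held by 688 members (58.5%, 55.6 to 61.2). Among promoter regions with the mutant and no H3K27me3, 66.8% (65.0 to 68.5) held a stricter H2A.Z AP3 region, and this interval overlaps that of the members.

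The share of promoter regions with a mutant region rose with the length of the wild-type region. A mutant region was found at 29.6% of the 3970 promoter regions with H3K27me3 and at 19.3% of the 14987 without it, against 21.4% of all promoter regions and 12.9% of all H2A.Z WT regions. Within classes of length the shares with and without the mark were closer. Of regions of 500 bp to below 1000 bp, 30.8% (28.4 to 33.3) of those with H3K27me3 and 28.7% (27.3 to 30.2) of those without it held the mutant.

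Among regions of 1000 bp to below 2000 bp the shares were 47.8% (44.7 to 50.9) with the mark and 41.9% (39.1 to 44.8) without it, intervals that barely overlap. Regions of 2000 bp or more had 60.8% and 56.7%, with wide overlap. The order was the other way below 250 bp, where 4.02% (2.74 to 5.87) of the marked and 6.81% (6.15 to 7.55) of the unmarked regions held H2A.Z AP3. These shares use the overlap that chose the members and are given without a test. A longer region also has a larger chance of an overlap, and the part of length in the difference was not tested.

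**Figure D2:**
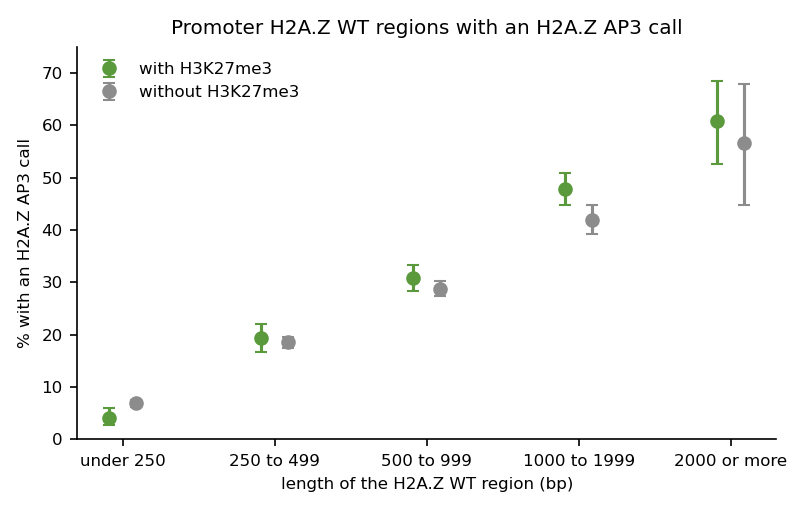
Share of promoter H2A.Z WT regions that held an H2A.Z AP3 region (percent, with 95% Wilson intervals) in 5 classes of region length in bp, with H3K27me3 (green) and without it (grey). The share climbs with length in both, from 4.02% to 60.8% with the mark and from 6.81% to 56.7% without it.

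The rule asked for both lists to touch the wild-type region and not each other. The mark was mapped in cells labelled WT, so bases shared with the mutant join lists from different cells. By site-specific PCR the study reports lower H3K27me3 at bivalent genes in the mutant ESCs, and these libraries did not map the mark there. In 983 members (83.5%, 81.3 to 85.5) the H2A.Z AP3 stretch shared bases with H3K27me3. H2A.Z AP3 covered 33.4% of the 719500 member bases inside H3K27me3 and 26.8% of the 536100 bases outside it. Of the 979 members that were marked over part of their length, 616 had the larger mutant share inside the mark, 340 outside it and 23 neither, and the median shares were 28.6% and 14.8%.

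Members whose mutant stretch lay apart from the mark were found at named genes too. Gdf7, a ligand of the Bmp family, had a member of 850 bp with 175 bp of H2A.Z AP3 and 550 bp of H3K27me3 that shared no base. Ppara, a nuclear receptor of fatty acid metabolism, had 150 bp and 375 bp in 850 bp, likewise without a shared base. Bcl2l11, a pro-apoptotic gene, had a member of 3650 bp with 475 bp of mutant and 75 bp of H3K27me3 that did not meet.

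Over the pooled bases of members, read in the direction of transcription, H2A.Z AP3 was densest in the middle. It covered 28.0% of the upstream, 35.4% of the middle and 28.4% of the downstream part when each region was divided into 3 equal parts. H3K27me3 ran otherwise, at 50.2%, 54.7% and 67.0%. This rise was seen in the 885 divided members with a downstream midpoint, at 46.8%, 55.9% and 70.7%. In the 289 with an upstream midpoint the mark was highest in the upstream part, at 61.4%, 50.9% and 54.6%. The stricter H2A.Z WT list had the same order as the mutant, with 85.5%, 94.0% and 86.0%.

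Most member regions lay over a start site, and most midpoints were downstream of the nearest one. The nearest start was within the region in 697 members (59.2%, 56.4 to 62.0). That held for 32.7% of regions with H3K27me3 and no mutant and 55.3% of those with the mutant and no mark. Members were longer, and within classes of length, compared after seeing the data, the latter order was reversed. From 250 bp to below 500 bp, 19.7% of members and 35.5% of regions with the mutant and no mark spanned a start. The shares were 49.6% and 72.0% below 1000 bp, and 76.9% and 84.3% below 2000 bp. With H3K27me3 and no mutant they were 15.8%, 40.3% and 67.0%. The median midpoint was 267 bp downstream (240.5 to 300), and 291 members (24.7%, 22.3 to 27.3) had their midpoint upstream. That share was 40.0% (38.2 to 41.8) in promoter regions with the mutant and no H3K27me3, and 32.0% (30.3 to 33.8) in those with H3K27me3 and no mutant. Its interval in the members lies below those of both.

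Since members were longer, the share upstream was also compared within classes of length, a comparison chosen after seeing the data. Of regions of 500 bp to below 1000 bp, 25.8% (21.8 to 30.1) of the members and 35.9% (33.1 to 38.7) of the regions with the mutant and no mark lay upstream. At 1000 bp to below 2000 bp the shares were 21.4% (18.02 to 25.3) and 31.4% (27.4 to 35.6). The intervals stayed apart in these classes and in that of 250 bp to below 500 bp, with 30.6% (23.9 to 38.2) and 42.8% (39.6 to 46.1). Against the regions with H3K27me3 and no mutant the shares at 500 bp to below 1000 bp were 25.8% and 26.6%, with overlapping intervals.

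Few members had start sites of opposite orientation nearby. Start sites on both strands were within 2000 bp of 48 members (4.08%, 3.09 to 5.37), compared with 11.5% (10.4 to 12.8) of promoter regions with the mutant and no mark and 3.72% (3.08 to 4.49) of those with the mark and no mutant. The member midpoints fell in an intron in 419 cases (35.6%), a coding exon in 316 (26.8%), the 5′ untranslated region in 246 (20.9%), the 3′ untranslated region in 5 and outside any protein-coding transcript in 191 (16.2%). Coding exons held those of Sox18, Olig3, a regulator of neural progenitors, and Hand1, a factor of heart and placenta.

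Coverage around the 1130 start sites nearest to members put the 3 lists in register. H2A.Z WT was highest in the bin centred 312.5 bp downstream, where 78.9% of start sites were covered. H2A.Z AP3 was highest at 337.5 bp, at 29.8%, with a lower upstream maximum of 15.3% at -262.5 bp and 13.6% at -37.5 bp between them. H3K27me3 was highest further out, with 60.1% at 737.5 bp and 45.1% at -537.5 bp, and was at 26.6% near the start.

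The mutant's upstream maximum was lower at members than at promoters with the mutant and no H3K27me3. At those 2780 start sites H2A.Z AP3 reached 24.4% at -287.5 bp and 33.6% at 162.5 bp. As a share of H2A.Z WT coverage, the mutant had 26.3% over 1000 bp upstream and 31.8% over 1000 bp downstream of member starts. Without the mark these were 46.1% and 37.0%, so the larger share was downstream at members and upstream at the unmarked promoters. This order follows the start sites of 1 library of each kind and was not tested.

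**Figure D3:**
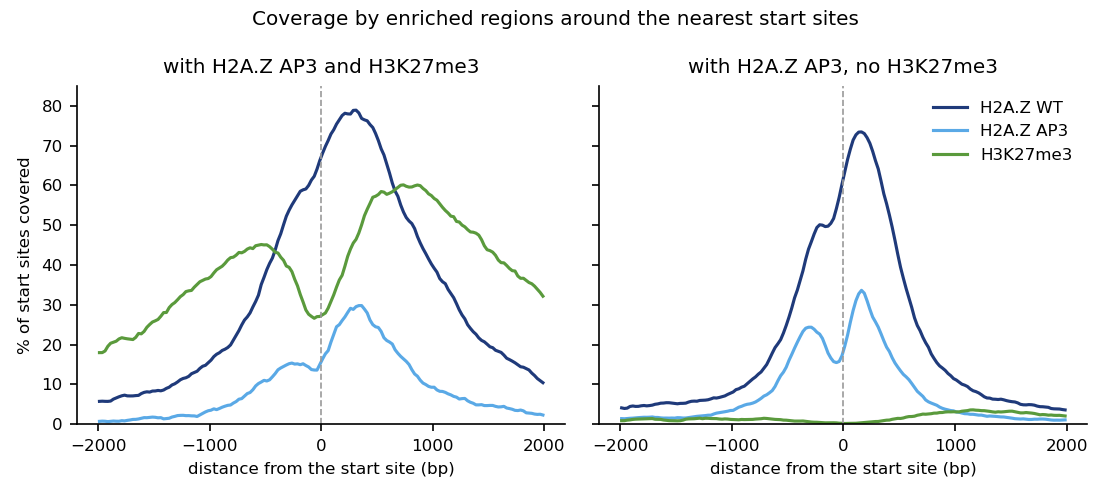
Share of start sites covered by each list (percent) in bins of 25 bp, by distance from the start site nearest to each region, for members (left) and for promoter regions with H2A.Z AP3 and no H3K27me3 (right). H2A.Z AP3 peaks at 29.8% downstream and 15.3% upstream on the left, and at 33.6% and 24.4% on the right.

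The DNA of members was rich in CpG. The observed over expected CpG ratio, which corrects for base content, had a median of 0.658 (0.646 to 0.667), and the median GC content was 62.2%. The ratio was 0.619 (0.612 to 0.627) with H3K27me3 and no mutant, 0.629 (0.621 to 0.641) with the mutant and no mark, 0.587 with neither and 0.295 outside promoters. A ratio over 0.6 with GC over 50% was found in 753 members (64.0%, 61.2 to 66.7), against 54.4% of either class with 1 of the 2 lists. In regions of 500 bp to below 1000 bp the median ratio was 0.658 in members and 0.662 with the mutant and no mark, at 250 bp to below 500 bp it was 0.658 and 0.640, and at 1000 bp to below 2000 bp it was 0.663 and 0.5998.

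Within members, the marked bases held fewer CpG than the unmarked ones. There were 5.63 CpG per 100 bp inside H3K27me3 and 7.16 outside it, while bases under H2A.Z AP3 had 6.10 and the remaining bases 6.36. The regions with H3K27me3 and no mutant had a like gap of 5.42 and 6.96.

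Short motifs were counted on both strands in the 300 bp around each midpoint. GGGCGG, known as a GC box, was present in 43.6% (40.8 to 46.4) of members and 40.0% of all promoter H2A.Z WT regions. It was in 46.3% (44.4 to 48.1) with the mutant and no mark, and in 38.3% with the mark and no mutant. CGCGCG, which can overlap itself, was in 19.2% (17.1 to 21.6) of members and 13.5% of all promoter regions. With the mutant and no mark it was in 15.5%, and with the mark and no mutant in 14.8%. In members and all promoter regions, CCAAT was found in 20.7% and 23.3%, CACGTG in 7.22% and 6.91%, and TATAAA in 1.53% and 2.54%. A match is a run of letters in this window and no measure of a bound factor.

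Of the 1177 members, 199 were at a gene of one of 16 lists and 978 were at none. A member was assigned to every gene with a start site within 2000 bp of its midpoint, which gave 5.12% of 22342 protein-coding genes, 8.47% of genes with any promoter H2A.Z WT region and 39.8% of those with one under H3K27me3. Of 293 developmental transcription factor genes 111 had a member (37.9%, 32.5 to 43.6), which was 48.5% of the 229 that had a marked region. Over all gene names the latter share was 39.7%. The lists were chosen with earlier results of these data known, and the members carry H3K27me3 by choice, so the shares describe the lists and no test was made.

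Of the Hox genes, 21 of 39 had a member (53.8%, 38.6 to 68.4). That was 60.0% (43.6 to 74.4) of the 35 with a marked region, against 39.7% over all gene names. The Hoxa cluster on chromosome 6 had members at 9 of its 11 genes, and H2A.Z AP3 covered 37.5% of their bases. The Hoxb cluster on chromosome 11 had members at 5 of 10 genes with 18.5% of bases covered, the Hoxc cluster on chromosome 15 at 2 of 9 with 28.6%, and the Hoxd cluster on chromosome 2 at 5 of 9 with 32.9%. The Hoxa cluster thus held most of the Hox members, 15 against 4, 2 and 6. Chromosome 6 as a whole also had more mutant. There 60.6% of marked promoter regions held it, against 24.2%, 21.2% and 25.6% on chromosomes 11, 15 and 2. Over all members of chromosome 6, H2A.Z AP3 covered 44.3% of bases, above the 37.5% at Hoxa. On chromosomes 11, 15 and 2 it covered 32.1%, 29.0% and 24.4%. A difference of the Hoxa cluster from the rest of its chromosome was not tested. Hoxa3, which patterns the pharyngeal arches and their glands, had a member of 2325 bp with 1550 bp of mutant in 3 stretches, and another of 750 bp with 25 bp. Hoxa9, a regulator of blood progenitors, had 3 members with 375, 50 and 50 bp of mutant.

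Of the homeobox genes outside the Hox clusters, 43 of 113 had a member (38.1%, 29.6 to 47.3). That was 40.6% of the 106 with a marked region, near the 39.7% over all gene names. Emx1, a factor of the developing cortex, had members with 800 bp of H2A.Z AP3 in 1150 bp and 175 bp in 1400 bp. At Tlx2 the mutant covered 850 bp of 2550 bp in 4 separate stretches. Fezf1, a zinc finger factor of the forebrain and olfactory system, had 3 members in a row with 825, 150 and 225 bp.

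Among forkhead genes 14 of 43 had a member. That was 63.6% (43.0 to 80.3) of the 22 with a marked region, against 39.7% over all gene names. Foxd4 had 1025 bp of H2A.Z AP3 in 1575 bp. Foxc1, required for eye and vessel development, had 2 short members of 300 and 450 bp that the mutant covered over 225 and 375 bp. Foxf1a, a factor of lung and gut mesenchyme, had 525 bp in 1200 bp and 50 bp in 775 bp, and Foxe1, a thyroid factor, had 3 members with 150, 75 and 25 bp.

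Smaller families of transcription factors were counted too. T-box genes had 7 of 17, Sox genes 7 of 18 (63.6% of the 11 with a marked region), Pax genes 3 of 9 and Gata genes 2 of 6. Among genes with a marked region, these were 58.3% of 12 T-box, 37.5% of 8 Pax and 40.0% of 5 Gata genes. Over all gene names with a marked region the share was 39.7%. The intervals of these small families were wide and each held that value, from 35.4 to 84.8 for Sox and from 32.0 to 80.7 for T-box. Those of Pax and Gata were 13.7 to 69.4 and 11.8 to 76.9. Tbx4, a regulator of hindlimb outgrowth, had 625 bp of mutant in 1225 bp, and Tbr1, a factor of cortical neurons, 525 bp in 775 bp. Sox18 had 775 bp in 1850 bp, Sox14 had 475 bp in 875 bp and Sox7 had 350 bp in 625 bp.

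The Pax members differed in how much of the mutant they carried. Pax9, needed for teeth and thymus, had 250 bp in 650 bp and 200 bp in 925 bp. Pax6, the regulator of eye development, had 3 members with 100, 75 and 25 bp of H2A.Z AP3 in 1250, 625 and 775 bp, and Pax8 had 25 bp in 1925 bp. Gata4, a factor of heart and endoderm, had 275 bp in 2100 bp.

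Basic helix-loop-helix genes had 14 of 48 and nuclear receptor genes 6 of 48. Among genes with a marked region, these were 46.7% of 30 (30.2 to 63.9) and 33.3% of 18 (16.3 to 56.3). Both intervals held the 39.7% over all gene names. Olig3 had a member of 1025 bp with 925 bp of mutant, Hand1 one of 1000 bp with 575 bp, and Hand2, a factor of the right ventricle and limb, one of 550 bp with 300 bp. Pparg, the regulator of fat cell differentiation, had 875 bp in 1400 bp. Nr5a1, a steroidogenic factor, had 475 bp in 775 bp and 75 bp in 475 bp.

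Signalling and neuronal genes were also counted. Wnt, Fgf and hedgehog ligand genes had 12 of 44 (27.3%), and ligands of the Bmp, Gdf, Nodal and activin kind 6 of 31 (19.4%). Axon guidance genes had 16 of 71 (22.5%) and ion channel genes 16 of 85 (18.8%). Among genes with a marked region, the shares in this order were 40.0%, 42.9%, 36.4% and 26.7%, against 39.7% over all gene names. Wnt16 was covered by the mutant over 1525 of 1600 bp and Wnt5b over 825 of 1450 bp. Plxnd1, a receptor for semaphorins, had 1400 of 1600 bp, Epha4, an ephrin receptor, 475 of 1075 bp, and Nrp1, a co-receptor for semaphorins, 475 of 3125 bp. The potassium channel genes Kcnk1, Kcna5 and Kcna6 had 1700, 975 and 850 bp of mutant. Bmp8a had 575 bp in 1025 bp, none of it shared with H3K27me3, and Gdf10 had 200 bp in 500 bp.

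No member was found at 31 genes of Polycomb complexes, 20 core pluripotency genes or 77 cytosolic ribosomal protein genes, for which the upper bounds of the intervals are 11.03%, 16.1% and 4.75%. Genes of these lists with a marked promoter region, which a member needs, numbered 5, 3 and 1.

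**Figure D4:**
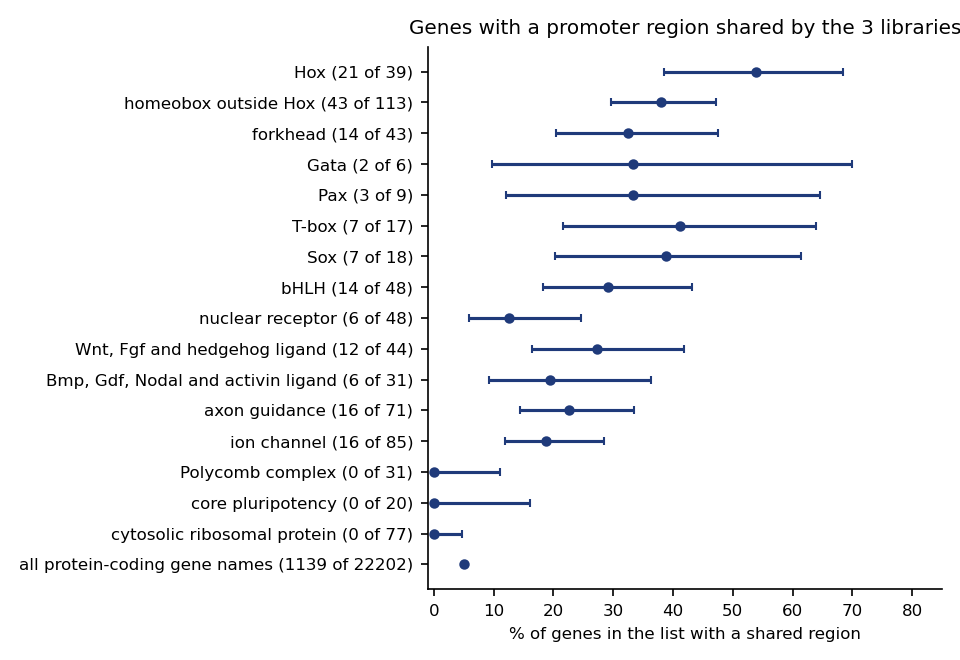
Share of the genes of each list that had a member (percent, with 95% Wilson intervals), with the counts beside each name. Hox genes are at 53.8%, T-box genes at 41.2% and all protein-coding gene names at 5.13%. Among genes with a marked promoter region, which a member needs, these shares are 60.0%, 58.3% and 39.7% (not drawn).

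Some genes with a member also had promoter regions without the mutant. Among the 1145 genes, 1063 had 1 member, 73 had 2, 8 had 3 and 1 had 4. Of the 2162 promoter H2A.Z WT regions at these genes, 1177 were members, 495 had H3K27me3 without the mutant, 73 had the mutant without H3K27me3 and 417 had neither. A further marked region without H2A.Z AP3 was present at 370 of the genes.

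The gene with 4 members was Pcdha11, of the clustered protocadherins that give neurons distinct surface identities. Its mutant stretches measured 600, 125, 100 and 50 bp in members of 1675, 975, 950 and 1050 bp. Genes of that cluster overlap, so the regions lie within the models of several of them. By start site, however, each region was assigned to Pcdha11 alone. The count of 4 thus rests on the start sites that the annotation places under that name.

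The genes that the study examined by site-specific PCR fell on different sides. Hoxa11 and Foxa2, a factor of endoderm and floor plate, each had 1 member and 1 marked region without the mutant, and H2A.Z AP3 covered 125 bp and 25 bp of their promoter regions. Bmp2 had 1 and Zfpm2, a cofactor of Gata proteins, had 2 marked regions without the mutant. Nagk and Thra had 1 and 2 regions with H2A.Z WT alone, and Pou5f1, the gene of OCT4, had no promoter region of H2A.Z WT.

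Among the members with the most mutant were those at Tril, Hsf4, Gm22, 4932443L11Rik and Rasgef1a. At Tril, an accessory gene of Toll-like receptor signalling that shares the region with Gm16499, H2A.Z AP3 covered 3200 of 3500 bp. Hsf4, a heat shock factor of the lens, had 2100 of 2125 bp, and Gm22, the longest member at 4150 bp, had 2050 bp. At 4932443L11Rik and Rasgef1a the mutant covered 1875 of 2075 bp and 1850 of 1975 bp.

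Of the 6 members with the most mutant, 5 were on chromosome 6 or 8. There the mutant was called at more of the marked promoter regions, 163 of 269 on chromosome 6 (60.6%) and 109 of 199 on chromosome 8 (54.8%). The 17 other autosomes ranged from 21.2% to 36.0% with a median of 25.4%, and the X chromosome had 3 of 31. The promoter regions without H3K27me3 showed the same split, at 35.1% on these 2 chromosomes and 16.8% elsewhere.

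Chromosomes 6 and 8 thus held 272 members (23.1%), with 11.8% of the marked promoter regions. Their members had a median of 400 bp under the mutant, compared with 200 bp for the other 905, and 43.6% against 25.9% of their bases. The Hoxa, Wnt2, Wnt16, Wnt5b, Emx1, Tlx2, Plxnd1, Pparg, Gata2, Fezf1, Kcna5, Kcna6 and Tril members are on chromosome 6, and those of Pou4f2, Foxf1a, Hand2, Nrp1, Kcnk1, Hsf4 and Gm22 on chromosome 8.

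Without these chromosomes the mutant still had the larger share inside H3K27me3. It covered 28.8% of member bases inside and 22.0% outside the mark, with the larger share inside in 468 and outside in 264 of 746 partly marked members. On chromosomes 6 and 8 the values were 47.0% and 39.5%. Upstream and downstream of member starts, the mutant had 20.4% and 27% of H2A.Z WT coverage when both chromosomes were left out.

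On the other chromosomes the members with the most mutant, named after their values were seen, included those at Odf3b and Tymp, and at Klhdc7b, Gna14, Slc7a4 and Adam33. Tymp, the gene of thymidine phosphorylase, shared a region with Odf3b that the mutant covered over 1650 of 2325 bp. Gna14, a G protein subunit, had 1625 of 1750 bp, and Klhdc7b 1625 of 1725 bp. Slc7a4, of a family of amino acid transporters, had 1475 of 2375 bp and Adam33, a metalloprotease, 1375 of 2775 bp.

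**Figure D5:**
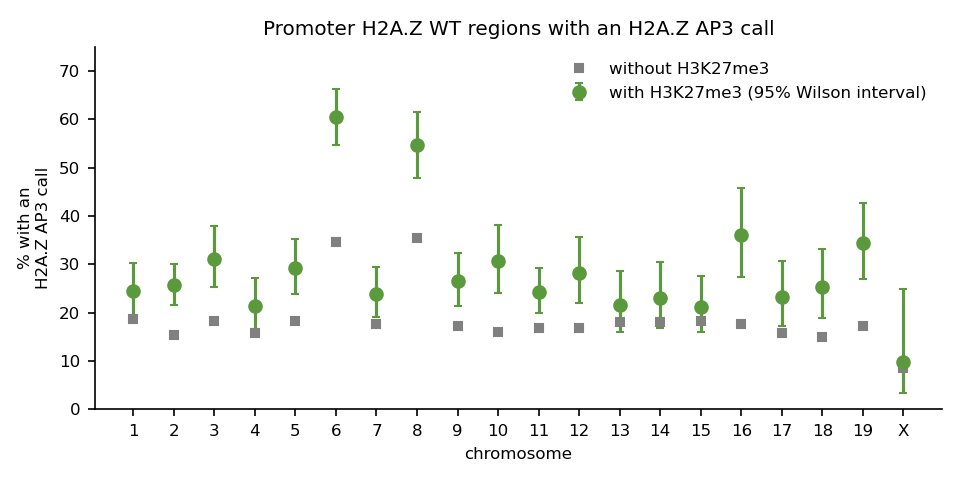
Share of promoter H2A.Z WT regions that held an H2A.Z AP3 region (percent) by chromosome, with H3K27me3 (circles, with 95% Wilson intervals) and without it (squares). Chromosomes 6 and 8 are at 60.6% and 54.8% with the mark, and the other autosomes at 21.2% to 36.0%.

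Few members were covered entirely by the mutant. Of the 995 members of 500 bp or more, 12 were under H2A.Z AP3 from end to end, among them Wnt2, 1520402A15Rik (625 bp), Il12rb2, a cytokine receptor gene (600 bp), and Slc2a3, a glucose transporter gene (1150 bp). The marked part of these differed, from all of Wnt2 to 25 bp at 1520402A15Rik, 225 bp at Il12rb2 and 75 bp at Slc2a3. Wnt2, Il12rb2 and Slc2a3 are on chromosome 6, where the mutant was called at 60.6% of marked promoter regions, and 1520402A15Rik is on chromosome 4.

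At the limits of the rule, 104 members met the mutant over 25 bp, the size of 1 bin, and 43 met H3K27me3 over 25 bp. Wnt6 and Rnf152 were among the former, with regions of 250 and 1525 bp. The members farthest from a start were those of Nkx2-5, Gp5 and Prr15, with midpoints at 1984, 1964 and 1957.5 bp. Pcdh8 (2005.5 bp) and Pcdhb16 (2016.5 bp) lay just outside the window. Of the marked regions without the mutant, those at Zbtb16 and Six6 abutted an H2A.Z AP3 region with a gap of 0 bp, and 412 had one within 1000 bp.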

How the data were processed

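ChIP-Seq regions of 3 libraries, 1 per group, were used. The authors aligned reads to mm9 with Bowtie 0.12.3, placed extended reads in bins of 25 bp and called enriched bins against a Poisson background at 1e-9 with a minimal enrichment over input. Each library was called alone. The deposited files hold no score, fold or signal, and their values are region starts and ends. The stricter lists are named for 1e-12, which the methods do not state. Read depth is unknown.

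Here regions were compared by overlap of 1 bp or more with GENCODE vM1 transcripts of chromosomes 1 to 19 and X on the same build, of which 22342 protein-coding genes were used. Bases and CpG were read from that genome. Shares carry 95% Wilson intervals and medians binomial ones, both treating regions as independent. No test between conditions was made. The members, gene lists and comparisons were chosen with earlier results of these data known.

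Named genes were the longest members, those with the most mutant bases or share, up to 3 genes per list with the most mutant bases, the genes with the most members, the limits of the rule and the genes studied by PCR, of which some are not reported here. Alternatives covered thresholds, promoter windows, overlap, joined regions, chromosomes and start sites. Procedures were tested on simulated lists. Python 3.11.15, NumPy 2.4.6, SciPy 1.17.1, pandas 2.3.3, pysam 0.24.0, samtools 1.23.1 and Matplotlib 3.10.9 were used.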

Additional observations from a re-analysis of the deposited data

Results flagged for a closer look

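The stricter lists held regions that the lists used above did not. Of the 2793 promoter regions with H2A.Z WT and H3K27me3 but no mutant, 159 (5.69%, 4.89 to 6.61) overlapped an H2A.Z AP3 region found at 1e-12 and not at 1e-9. Their median length was 1000 bp. Among promoter regions with neither list, 451 of 12101 (3.73%) did so. An H3K27me3 region found at 1e-12 alone lay at 15 of the 2886 promoter regions with the mutant and no mark (0.520%, 0.315 to 0.856). These regions were counted because the comparisons above do not use them.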

How the results depend on the processing

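Over 12 planned settings and those added after seeing the data, 91 of 124 recomputed values stayed within their interval or within 1.5 times of a count. For shares of bases or of coverage, that interval took members or start sites as units and is only a rough yardstick. The limit for counts was wide. The 1177 members became 804 with all lists at 1e-12 and 905 without chromosomes 6 and 8, both within it. The share of marked promoter regions with the mutant, 29.6% as reported, was 23.9% with all lists at 1e-12, 24.3% with the mutant list at 1e-12, 32.2% and 27.8% with windows of 1 and 5 kb, 27.5% with an overlap of at least 50 bp, 25.8% without chromosomes 6 and 8, and 41.4% with regions joined across 1 kb. The median length was 887.5 bp with all lists at 1e-12, 800.0 bp with the wild-type list at 1e-12 and 1550.0 bp with joined regions. Mutant coverage inside H3K27me3 was 26.6% with the mutant list at 1e-12, 38.1% with the wild-type list at 1e-12, 36.2% with an overlap of 50 bp, 28.8% without chromosomes 6 and 8 and 26.8% with joined regions. Outside the mark it was 24.2% with all lists at 1e-12, and 20.9%, 31.8%, 22.0% and 22.7% with the mutant list at 1e-12, the wild-type list at 1e-12, without both chromosomes and with joined regions. The share of members whose mutant stretch met the mark was 77.1% with all lists, 78.4% with the mutant list, 79.1% with the H3K27me3 list and 86.4% with the wild-type list at 1e-12, 86.7% with 50 bp and 81.3% with joined regions. With the most upstream start of each gene, 20.4% of members lay upstream. Developmental transcription factor genes with a member were 28.3% with all lists at 1e-12, 30.4% with the mutant list, and 29.0% and 46.8% with windows of 1 and 5 kb. The mutant's share of wild-type coverage upstream and downstream, without chromosomes 6 and 8, was 20.4% and 27%, a setting chosen after seeing the data.

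No paired analysis was possible because each group was 1 library, which also left no replicate to omit. Unknown depth limits every comparison of list sizes and lengths. The endogenous H2A.Z left after depletion was not measured here.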
